A study of Mus musculus with 20 samples.

Results

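The Cyp1 cytochrome P450 enzymes and the aryl hydrocarbon receptor (AhR) pathway that controls them were followed in mouse liver, through every probe set of the array whose platform gene symbol was Cyp1a1, Cyp1a2, Cyp1b1, Ahr, Arnt, Ahrr or Tiparp. These were 16 of the 45037 probe sets in the table and 7 of its 18193 genes. The 4 groups held 5 mice each: phenobarbital (PB) for 28 days, methylcellulose vehicle (CMC) for 28 days, PB for 90 days and CMC for 90 days. PB was given by mouth as phenobarbital sodium at 80 mg/kg/day, and every mouse, control or not, received 10 mL/kg of a 0.5% methylcellulose solution daily. All animals were males of CD-1, an outbred stock, killed the day after dosing ended, and the left lateral lobe of each liver gave 1 array. Their age and any array batches are not stated in the labels.

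The AhR is a transcription factor that waits in the cytoplasm, bound to chaperones, until a planar aromatic ligand such as a dioxin enters it. It then moves to the nucleus, pairs with ARNT and binds DNA at sites with the core GCGTG, from which it raises the Cyp1 genes, its own repressor Ahrr, and Tiparp, which encodes an enzyme that ADP-ribosylates the receptor. In liver, CYP1A2 is an abundant enzyme of the hepatocytes around the central vein even without a ligand, and it oxidises caffeine and aromatic amines, whereas CYP1A1 is scarce until the receptor is activated. Phenobarbital is the classical activator of another receptor, CAR, known for raising the Cyp2b and Cyp2c genes.

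Cyp1a1 and Cyp1a2 are neighbours that are transcribed away from each other on mouse chromosome 9, and their promoters are shown because the levels of this pair are set side by side below. The sequences are the 250 bases before the transcript start that the promoter table uses for each gene, 5′ to 3′ on the gene's own strand, from RefSeq on build GRCm38.p6 (Cyp1a1 chr9:57697363-57697612, plus strand; Cyp1a2 chr9:57683656-57683905, minus strand), with GCGTG or its reverse complement CACGC in capitals.
Cyp1a1: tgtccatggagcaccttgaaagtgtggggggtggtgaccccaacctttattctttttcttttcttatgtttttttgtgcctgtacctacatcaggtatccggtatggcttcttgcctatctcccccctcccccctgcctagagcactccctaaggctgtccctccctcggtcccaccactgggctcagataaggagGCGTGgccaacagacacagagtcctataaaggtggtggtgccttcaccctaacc
Cyp1a2: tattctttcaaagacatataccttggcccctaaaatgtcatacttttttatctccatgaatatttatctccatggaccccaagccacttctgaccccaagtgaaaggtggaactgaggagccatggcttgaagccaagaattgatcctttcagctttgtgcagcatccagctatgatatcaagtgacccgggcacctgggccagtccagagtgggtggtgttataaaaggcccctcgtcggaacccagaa
For Cyp1a1 and Arnt that start lies inside the RefSeq gene record and not at its outer end. The Cyp1a1 window holds 1 match, 54 bases before the start, and the Cyp1a2 window holds 0. Of the other members in the table, Arnt, Cyp1b1 and Tiparp hold 1 match each and Ahrr holds 3, the nearest of these 27 bases before the start. Among all 32851 promoter windows of this length 28.2% hold at least 1 match and 2.77% hold 3 or more, so a single match is common. No entry for Ahr was matched in that table. No binding was measured here, and a match is a description of the letters only.

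Values are log2 signals after RMA, and n is 5 mice per group unless stated. Differences are PB minus CMC on the log2 scale, each with its standard error from a limma model of all genes on all 20 arrays, and p-values were adjusted by Benjamini and Hochberg over 16054 genes, with a call at an adjusted p under 0.05. Background was taken as each array's own 25th percentile, which lay between 3.96 and 4.26. Of the 7 genes 6 passed a filter that asked for a signal above background on at least 5 arrays, and Ahrr did not. Over all genes, 2 PB arrays lay apart at the low end of the first principal component, which held 55.57% of the variance: replicate 5 at 28 days scored -107.9 and replicate 3 at 90 days -65.22, while the other 18 arrays lay between -39.81 and 44.18. Their 75th percentiles, 6.62 and 6.81, were also the lowest of the 20, where the others lay between 6.87 and 7.17. The main results are therefore given with and without these 2 arrays. A difference given with no setting named is from all 20 arrays, and it can change in size or sign without the 2. The drug response was plain in the same model: Cyp2b10, the standard target of CAR, rose by 4.90 ± 0.62 at 28 days (limma adjusted p = 0.000572) and 5.88 ± 0.62 at 90 days (2.79e-05).

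Cyp1a2 was the member with the largest difference between PB and CMC livers at 28 days, but with all 20 arrays it was not called. Its signal after 28 days was 13.28, 13.18, 13.08, 13.19 and 11.52 in the PB livers, against 11.95, 12.50, 11.92, 12.16 and 12.12 in the CMC livers. Of the PB livers 4 lay above every CMC liver, and the one that lay below all of them was replicate 5, the array at the low end of the first component. The means were 12.85 ± 0.75 in PB and 12.13 ± 0.23 in CMC livers (SD, n = 5 each), a difference of 0.72 ± 0.30 or 1.65-fold (95% interval 0.09 to 1.35, limma adjusted p = 1.0).

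After 90 days the Cyp1a2 signal was 13.20, 13.74, 12.01, 12.84 and 13.43 in the PB livers, against 12.76, 12.90, 12.66, 12.49 and 12.89 in the CMC livers. Here 3 PB livers lay above every CMC liver and the lowest, replicate 3, was again the array that stood apart. The means were 13.04 ± 0.66 in PB and 12.74 ± 0.17 in CMC livers (SD, n = 5 each), and the difference was 0.30 ± 0.30 or 1.23-fold (95% interval -0.33 to 0.93; limma adjusted p = 0.817). Averaged over both durations the difference was 0.51 ± 0.21, or 1.42-fold, with a 95% interval of 0.07 to 0.96 and an adjusted p of 0.72. By mean, the order of the groups was PB at 90 days, PB at 28 days, CMC at 90 days and CMC at 28 days, and the first 3 lay within the spread of the PB groups.

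**Figure D1:**
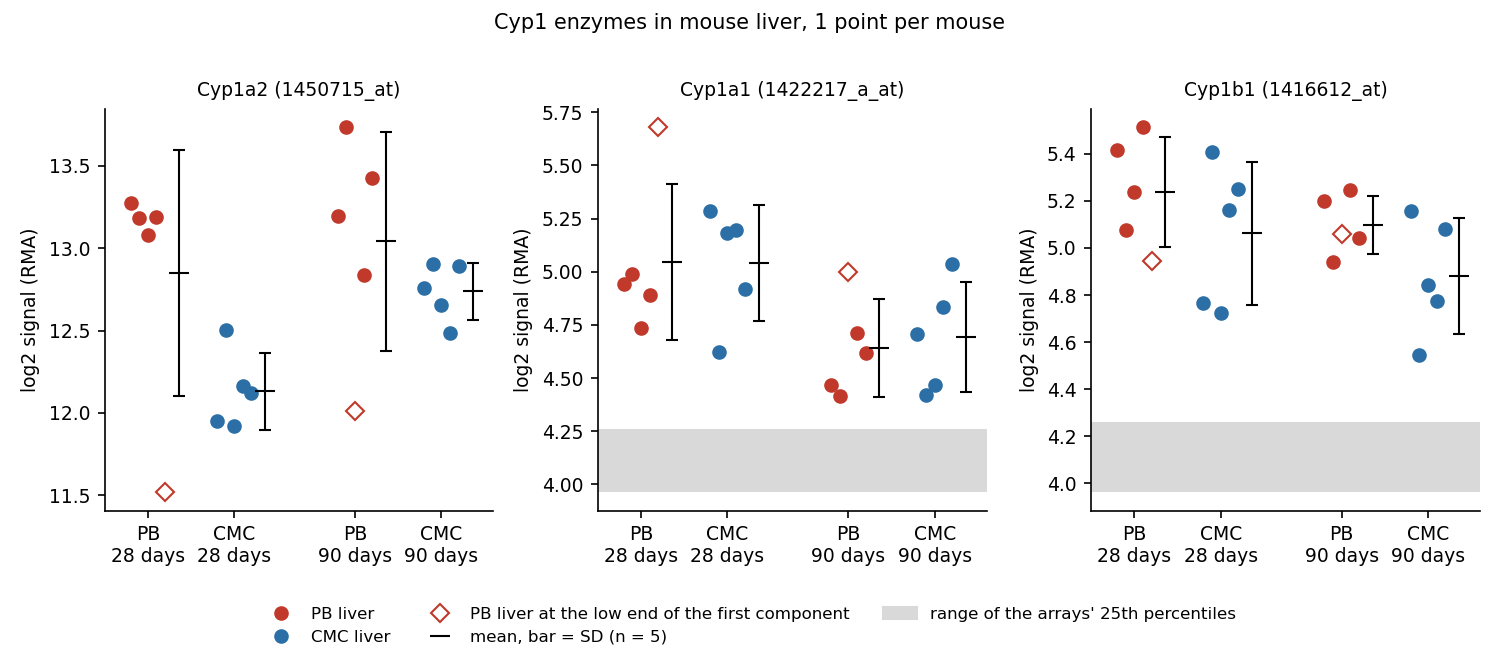
Log2 signal (RMA) of Cyp1a2, Cyp1a1 and Cyp1b1 in each liver, with PB left of CMC at each duration; bars give mean and SD of 5 mice, open diamonds mark the 2 PB arrays at the low end of the first component, and grey bands span the 25th percentiles of the arrays. In Cyp1a2 the diamonds are the lowest point of each PB group, and in Cyp1a1 they are the highest.

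Without the 2 arrays Cyp1a2 was called at 28 days. The 4 remaining PB livers averaged 13.18 ± 0.08 (SD, n = 4), against 12.13 ± 0.23 in the 5 CMC livers, and did not overlap with them, as was the case for 1.4% of all genes. In that fit Cyp1a2 rose by 1.05 ± 0.15, or 2.07-fold (95% interval 0.73 to 1.37, limma adjusted p = 0.00236), as 1 of 11 genes called (0.0685%). At 90 days the PB mean was 13.30 ± 0.38 (SD, n = 4), against 12.74 ± 0.17 in CMC livers, a difference of 0.56 ± 0.15 or 1.48-fold that was not called (adjusted p = 0.491, 28 genes called, 0.174%). The mean over both durations was 0.81 ± 0.11, or 1.75-fold (adjusted p = 0.000401, 1 of 41 genes called, 0.255%). These arrays were picked by their score over all genes, and they carried the lowest Cyp1a2 value of each PB group, so that leaving them out could only raise the PB means.

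Other treatments of the arrays were tried as well. With all 4 arrays that scored below -30 left out, which removed CMC replicates 1 and 3 at 28 days as well, Cyp1a2 differed by 0.92 ± 0.16 at 28 days (limma adjusted p = 0.0493, 1 of 10 genes called, 0.0623%) and by 0.56 ± 0.14 at 90 days (0.37, 0.168%). Array weights, which count variable arrays less, gave 0.97 ± 0.17 (0.0116, 0.106% of genes called) and 0.45 ± 0.18 (0.729, 0.174%). With the first component as a term of the model the differences were 0.86 ± 0.13 (0.00217, 0.106%) and 0.64 ± 0.13 (0.0367, 0.206%), both called. For the mean of both durations these settings gave 0.74 (0.0025, 0.249% of genes called) without the 4 arrays, 0.71 (0.00423, 0.311%) with weights and 0.75 (8.3e-05, 0.318%) with the component, all called. The choice of the 4 arrays was made after seeing the data. The weights and the component were computed from these same arrays, so these settings give no independent support. Within groups Cyp1a2 rose with the component, and the PB livers had the lower mean score at both times. Adding the component to the model could therefore only raise the PB difference. Without PB replicate 5 alone, the 28-day difference was 1.05 with an adjusted p of 0.21.

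**Figure D2:**
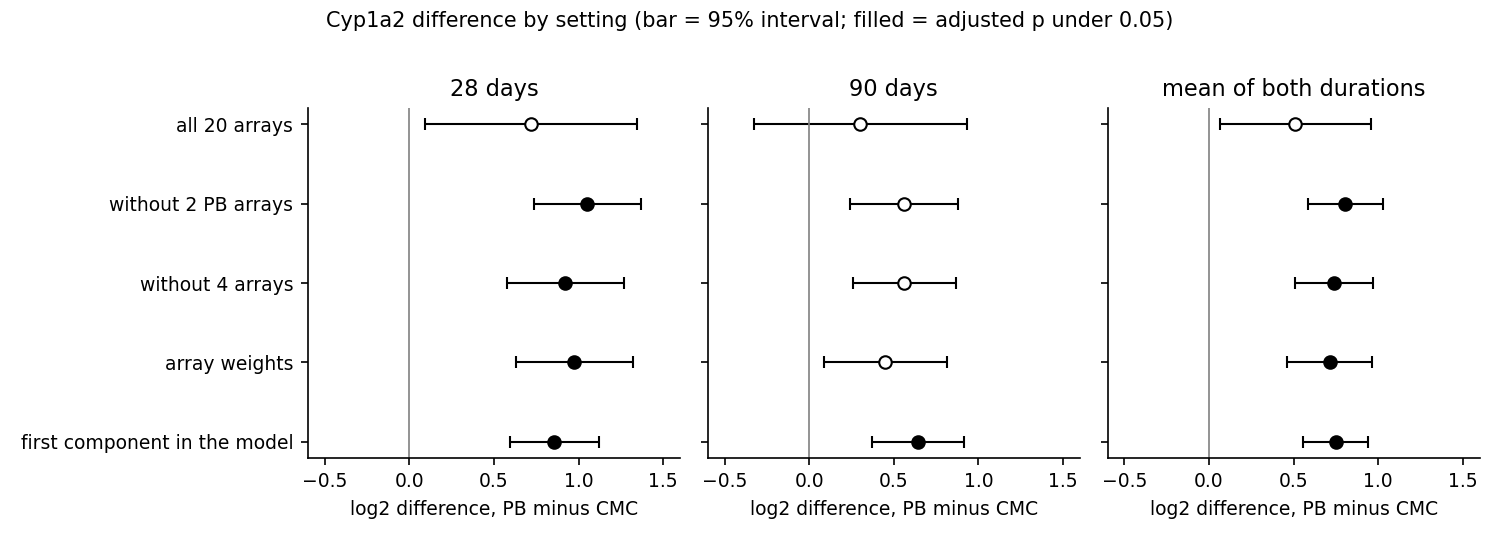
Cyp1a2 difference, PB minus CMC in log2 units, at 28 days, at 90 days and as the mean of both, in 5 settings of the limma fit; bars are 95% intervals and filled points have an adjusted p under 0.05. With all 20 arrays no point is filled; with the first component in the model all 3 are.

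The Cyp1a2 signal followed the first component over livers. After removal of the group means, Pearson's r was 0.918 and Spearman's rho 0.789 (n = 20 livers, permutation p = 0.00021 and 0.00094, adjusted over 7 members 0.00049 and 0.00219), and r was 0.697 without the 2 arrays. Group means of the component were -17.5 in PB and -6.73 in CMC livers at 28 days, and -1.08 in PB and 25.3 in CMC livers at 90 days (exact permutation p = 0.786 and 0.262, n = 5 each). The spread of Cyp1a2 within the PB groups thus ran along the main axis of difference between the arrays, and what set the 2 arrays apart was not tested.

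**Figure D3:**
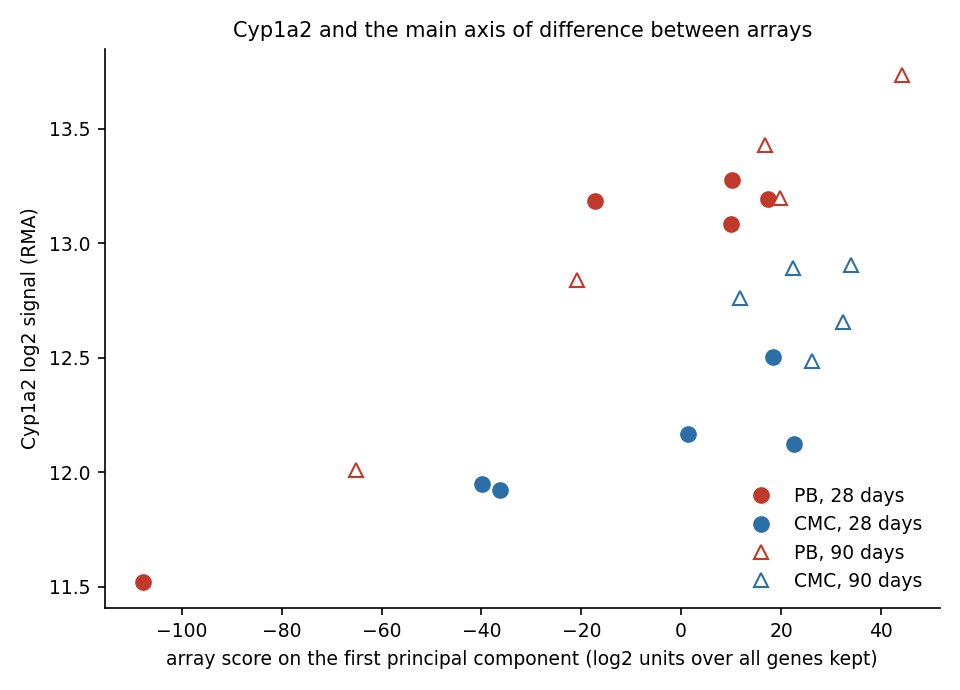
Cyp1a2 log2 signal of each liver against the score of its array on the first principal component of all genes kept; filled circles are 28 days, open triangles 90 days, red PB and blue CMC. At scores above -30 every PB liver at 28 days lies above every CMC liver at 28 days, and the lowest 2 scores belong to PB livers with 11.52 and 12.01.

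RNA from whole tissue cannot tell fewer cells of a type from less RNA per cell, so hepatocyte markers are given beside Cyp1a2. Of 6 hepatocyte markers 0 had a positive difference at 28 days and 1 at 90 days, with medians of -0.07 and -0.11 and 0 called, and medians of 0.01 and -0.05 without the 2 arrays. Their summed linear signal ranged from 97520 to 127700 in PB and from 114600 to 132400 in CMC livers at 28 days, and from 112000 to 134000 in PB and 128100 to 132800 in CMC livers at 90 days. Of 7 markers of the central-vein hepatocytes, where CYP1A2 is made, 3 were positive at 28 days and 2 at 90 days, with medians of -0.02 and -0.08 and 0 called, and medians of 0.11 and -0.02 without the 2 arrays. They ran from -0.54 (Oat) to 0.44 (Lect2) at 28 days and from -0.65 (Oat) to 0.84 (Lect2) at 90 days, and the P450 Cyp2e1 gave -0.04 ± 0.11 and -0.08 ± 0.11; these 3 were named after their values were seen. The summed central-vein markers lay between 26650 and 39870 in PB and 31370 and 38860 in CMC livers at 28 days, and between 31690 and 42110 in PB and 35420 and 42480 in CMC livers at 90 days. None of these sums separated the groups. The hepatocyte sum rested mainly on Alb, Ttr and Apoa1, whose group means lay between 14.86 and 15.17. The central-vein sum rested mainly on Cyp2e1, at 14.51 to 14.70. Sums fixed by so few bright genes cannot decide whether the share of these cells changed.

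Cyp1a1, the enzyme most closely tied to an active AhR, showed no difference that passed the test. After 28 days it measured 4.94, 4.99, 4.74, 4.89 and 5.68 in the PB livers, against 5.29, 4.62, 5.18, 5.20 and 4.92 in the CMC livers. After 90 days it measured 4.47, 4.42, 5.00, 4.71 and 4.62 in PB livers, against 4.71, 4.42, 4.47, 4.84 and 5.04 in CMC livers. The ranges overlapped at both times, and all values stood close to background, 0.80 above it on average. The differences were 0.01 ± 0.17 at 28 days (95% interval -0.35 to 0.37, limma adjusted p = 1.0) and -0.05 ± 0.17 at 90 days (-0.41 to 0.31, 0.935), and -0.15 and -0.14 without the 2 arrays. RMA compresses differences at signals this close to background, so the intervals hold for the RMA scale only.

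Whether Cyp1a2 moved apart from Cyp1a1 was tested within each liver as the difference of the 2 log2 signals. That difference was larger in PB than in CMC livers by 0.71 at 28 days (exact permutation p = 0.19, n = 5 each) and by 0.35 at 90 days (p = 0.437). Without the 2 arrays it was larger by 1.20 at 28 days (p = 0.0159, the smallest that 4 against 5 livers can give) and by 0.70 at 90 days (p = 0.0476), and adjusted over these 4 exact permutation tests the p-values were 0.0636 and 0.0952. The 28-day groups did not overlap in that setting, and the adjusted p of 0.0636 is 4 times the smallest p that these livers can give. Nothing on whether the 2 genes differ in their response is read from it. This test was added after the data were seen. Over livers Cyp1a1 ran opposite to Cyp1a2, with r = -0.773 and rho = -0.653 after removal of group means (n = 20, permutation p = 0.00162 and 0.0035, adjusted over 21 pairs 0.0154 and 0.0184). The r was -0.458 without the 2 arrays and -0.0092 with the first component removed.

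Cyp1b1 encodes the family member made mainly outside the liver, in it chiefly by stellate cells, and its signal lay 1.02 above background. After 28 days it measured 5.42, 5.07, 5.24, 5.51 and 4.95 in the PB livers, against 4.77, 5.41, 4.72, 5.16 and 5.25 in the CMC livers. At 90 days the values were 5.20, 4.94, 5.06, 5.25 and 5.04 in PB livers, against 5.16, 4.55, 4.84, 4.78 and 5.08 in CMC livers. PB and CMC livers overlapped at both times, with differences of 0.18 ± 0.15 and 0.22 ± 0.15 and a mean of 0.20 ± 0.10 (95% interval -0.02 to 0.41, limma adjusted p = 0.72). A second Cyp1b1 probe set, 1432081_at, gave -0.11 ± 0.10 at 28 days and -0.01 ± 0.10 at 90 days, so that the positive values were not shared. The third, 1416613_at, was above background on 0 of 20 arrays. Of 7 stellate and fibroblast markers 6 were positive at each time, with medians of 0.12 and 0.28 and 0 called (0.04 and 0.28 without the 2 arrays). Their summed signal ranged from 5839 to 7297 in PB and 3802 to 8362 in CMC livers at 28 days, and from 5879 to 7926 in PB and 4699 to 6558 in CMC livers at 90 days. The part of these cells in the Cyp1b1 values was not tested.

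Ahr itself, the receptor, did not differ by a margin that passed the test. Its brightest probe set, 1422631_at, measured 8.66, 9.35, 9.10, 9.18 and 8.49 in PB livers at 28 days, against 8.80, 9.12, 8.98, 9.66 and 9.10 in CMC livers. At 90 days it measured 9.35, 9.48, 8.09, 9.11 and 9.57 in PB livers, against 8.97, 9.53, 9.49, 8.77 and 9.05 in CMC livers. In each PB group the lowest liver was the array that stood apart. The differences were -0.17 ± 0.26 (95% interval -0.71 to 0.37) and -0.04 ± 0.26 (-0.58 to 0.50), and -0.06 and 0.22 without these arrays, so the sign at 90 days turned. The dimmer probe set 1450695_at gave 0.18 ± 0.14 at 28 days and 0.30 ± 0.14 at 90 days (limma, adjusted over all probe sets, adjusted p = 1.0 and 0.857). Without the 2 arrays its 90-day PB livers, at 5.64 ± 0.10 (SD, n = 4), all lay above the CMC livers at 5.27 ± 0.17 (n = 5), a difference of 0.37 ± 0.12 with an adjusted p of 0.998. Among all genes 1.38% did not overlap in that setting.

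Arnt, the partner that the receptor needs to bind DNA, was measured by 5 probe sets, and their differences lay between -0.10 and 0.22 at 28 days and between -0.12 and 0.02 at 90 days. The brightest, 1419996_s_at, averaged 7.65 ± 0.33 in PB and 7.64 ± 0.25 in CMC livers at 28 days, and 7.76 ± 0.19 in PB and 7.88 ± 0.07 in CMC livers at 90 days (SD, n = 5 each). Its differences were 0.00 ± 0.16 (95% interval -0.33 to 0.34) and -0.12 ± 0.16 (-0.46 to 0.22), and 0.13 and -0.07 without the 2 arrays. The 0.22 at 28 days came from 1449696_at (limma adjusted p = 1.0), which was above background on 3 of 20 arrays.

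Ahrr, the repressor that competes with the receptor for ARNT and rises when the receptor is active, lay below background on all 20 arrays and was tested only among all probe sets. It measured 3.47, 3.46, 3.47, 3.47 and 3.75 in PB livers at 28 days, against 3.62, 3.62, 3.59, 3.34 and 3.61 in CMC livers. At 90 days it measured 3.76, 3.77, 3.53, 3.51 and 3.82 in PB livers, against 3.48, 3.54, 3.32, 3.38 and 3.24 in CMC livers. The 90-day difference was 0.28 ± 0.09 (limma adjusted p = 0.857) with 1 CMC value inside the PB range, and the 28-day difference was -0.03 ± 0.09. A signal below background is no measured level, and no change is read from it.

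Tiparp, the ADP-ribosylating target gene, overlapped between PB and CMC livers at both times and varied most among the PB livers at 90 days, with an SD of 0.54 there and of 0.22 to 0.30 in the other groups. The probe set 1426721_s_at measured 7.09, 7.64, 7.22, 7.20 and 7.45 in PB livers at 28 days, against 7.43, 7.27, 7.82, 7.35 and 7.36 in CMC livers. At 90 days it measured 7.59, 6.55, 7.93, 7.74 and 7.22 in PB livers, against 7.13, 7.14, 7.08, 7.76 and 7.04 in CMC livers. The differences were -0.13 ± 0.22 and 0.18 ± 0.22 (limma adjusted p = 1.0 and 0.831), and -0.16 and 0.05 without the 2 arrays. The other probe sets gave -0.38 ± 0.33 and -0.04 ± 0.33 (1452160_at), and -0.20 ± 0.22 and 0.16 ± 0.22 (1452161_at). Among the 90-day PB livers replicate 2 was lowest in all 3 probe sets (6.55, 4.76 and 4.93) and replicate 3 highest (7.93, 7.26 and 6.28). On the first component replicate 2 had the highest score of the 20 arrays, 44.18, and replicate 3 scored -65.22. Tiparp ran against that component over the group-centred livers (r = -0.587, n = 20, permutation p adjusted over 7 members 0.0137).

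**Figure D4:**
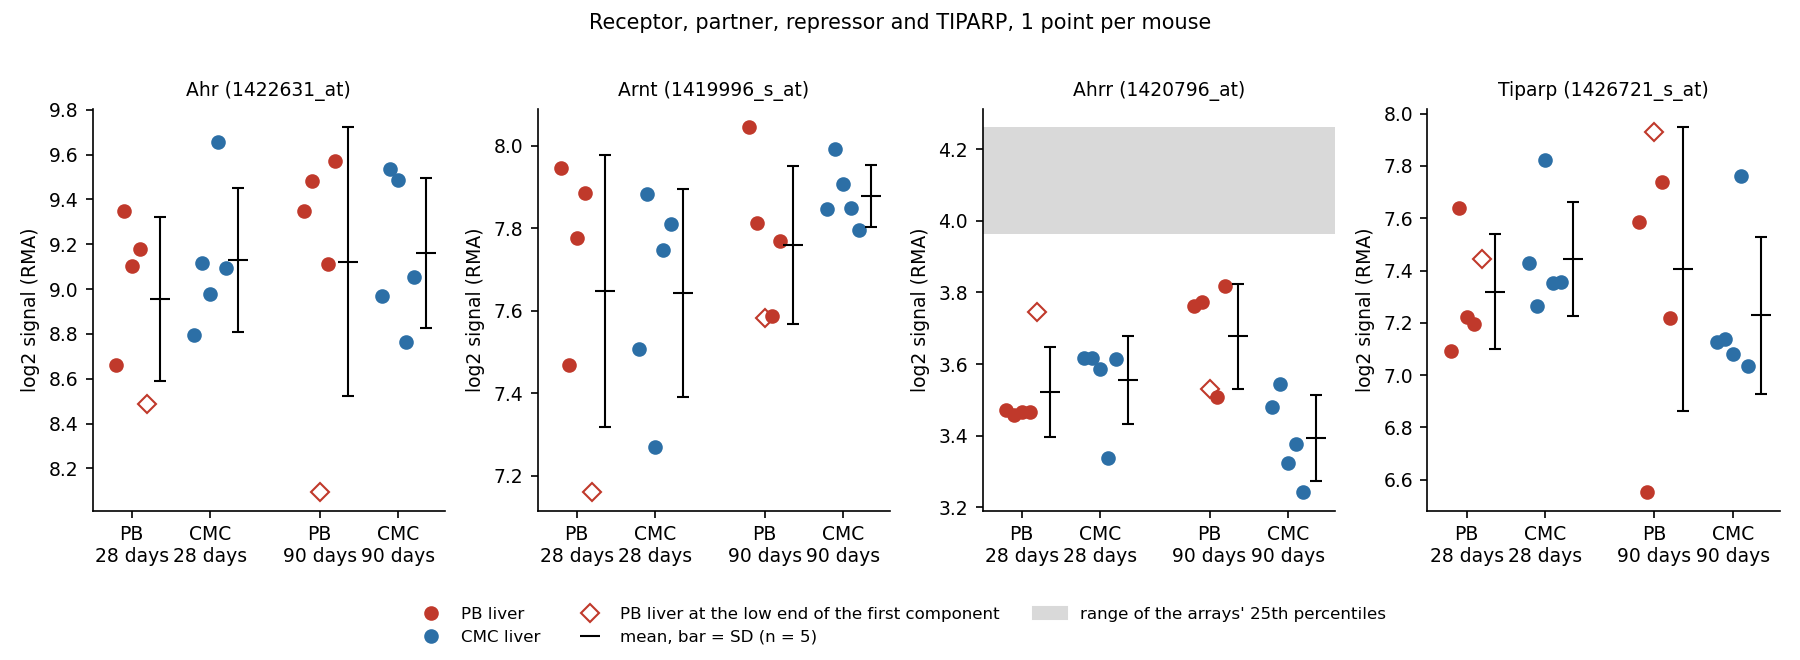
Log2 signal (RMA) of the brightest probe sets of Ahr, Arnt, Ahrr and Tiparp in each liver, with PB left of CMC at each duration; bars give mean and SD of 5 mice, open diamonds mark the 2 PB arrays at the low end of the first component, and the grey band spans the 25th percentiles of the arrays. PB and CMC points overlap in every panel, and all Ahrr points lie below the band.

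Counted together, 0 of the 6 members tested were called at 28 days, where 0.0498% of all genes were, 0 at 90 days (0.143%) and 0 in the mean of both durations (0.212%). In the fit to single probe sets 0 of 16 were called at 28 days (0.0244% of all probe sets) and 0 at 90 days (0.0511%). At an unadjusted p under 0.05 limma gave 1 member at 28 days, Cyp1a2, beside 2.86% of all genes (1.83% higher and 1.03% lower). There were 0 such members at 90 days (4.53%; 3.15% higher and 1.38% lower), and Cyp1a2 alone, higher, in the mean of both durations (6.6%; 4.24% higher). The median difference of the 6 was 0.01 at 28 days and 0.07 at 90 days, beside those of all genes at 0.00 and 0.03. PB and CMC livers did not overlap for 0 of the 16 probe sets at either time, as against 0.58% of all probe sets at 28 days and 1.03% at 90 days. Without the 2 arrays they did not overlap for 2 of 16 at 28 days (1.28%), Cyp1a2 and the dim Arnt probe set 1449696_at, and for 1 of 16 at 90 days (1.39%), the Ahr probe set 1450695_at.

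**Figure D5:**
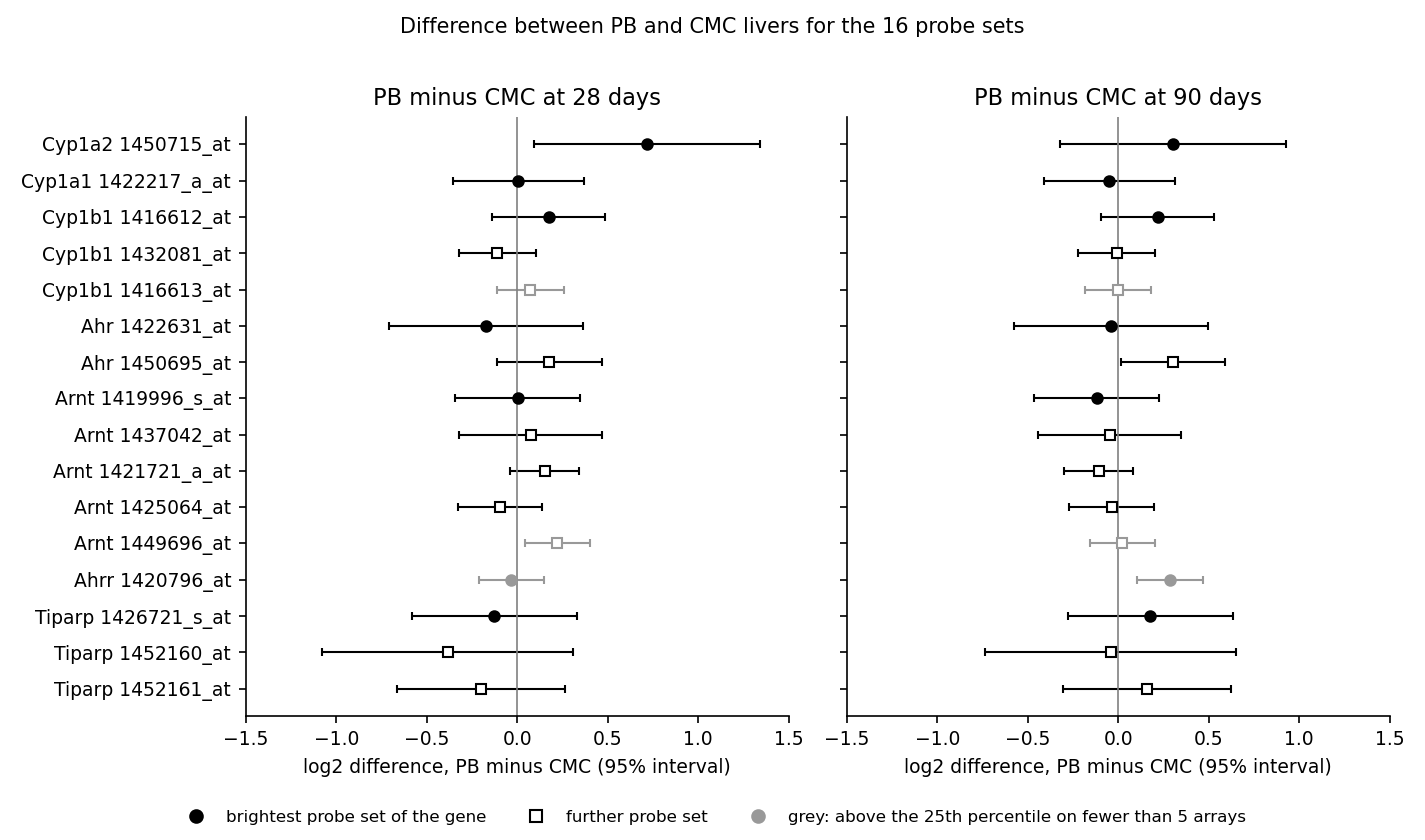
Difference between PB and CMC livers (PB minus CMC, log2 units) for each of the 16 probe sets at 28 and 90 days, with 95% intervals of the limma fit to all 45037 probe sets; circles are the brightest probe set of each gene, squares the others, and grey marks probe sets above background on fewer than 5 arrays. Cyp1a2 lies farthest to the right at 28 days, at 0.72.

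The 90-day livers were compared with the 28-day livers in each arm. These were different mice, so time of dosing, age and any array batch cannot be told apart within an arm. The PB effect at 90 days minus that at 28 days was -0.42 ± 0.43 for Cyp1a2 (95% interval -1.31 to 0.47, limma adjusted p = 1.0), and 0 of 6 members and 0% of all genes were called. At an unadjusted p under 0.05 limma gave 0 members, beside 221 genes (1.38%). Without the 2 arrays the Cyp1a2 value was -0.49 ± 0.21 (adjusted p = 0.976). It was -0.22 ± 0.18 with the first component in the model, -0.36 ± 0.22 without the 4 arrays and -0.52 ± 0.24 with array weights. In the CMC arm Cyp1a2 was higher at 90 than at 28 days by 0.61 ± 0.30 (limma adjusted p = 0.636), with 1 liver from each time within the range of the other, and in the PB arm by 0.19 ± 0.30 (adjusted p = 0.971). With the first component in the model these differences were 0.20 ± 0.13 and -0.02 ± 0.13. The CMC difference was 0.48 ± 0.16 without the 4 arrays and 0.56 ± 0.17 with array weights. Without the 2 arrays, both from PB livers, the CMC difference stayed at 0.61 and its standard error fell to 0.14. There the limma p was 0.000432 unadjusted and 0.279 adjusted, and the PB difference was 0.12 ± 0.16. Of the members 0 were called in the CMC arm (0% of all genes) and 0 in the PB arm (0.00623%). At an unadjusted p under 0.05 limma gave 0 members in the CMC arm, beside 5.69% of genes, and 1 in the PB arm, Cyp1a1, beside 4.23%.

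Cyp1a1 lay lower at 90 than at 28 days in both arms, with differences of -0.41 ± 0.17 in PB (limma adjusted p = 0.971) and -0.35 ± 0.17 in CMC livers (0.636). With the first component in the model they were -0.30 ± 0.11 and -0.14 ± 0.11. Without the 2 arrays they were -0.34 ± 0.15 and -0.35 ± 0.13 (limma unadjusted p = 0.0359 and 0.0172, adjusted 0.999 and 0.279). The Cyp1b1 probe set 1432081_at averaged 4.53 ± 0.16 at 90 days and 4.85 ± 0.12 at 28 days in CMC livers (SD, n = 5 each), a difference of -0.32 ± 0.10 (adjusted p = 0.709 over all probe sets). It was the 1 of 16 probe sets whose CMC groups did not overlap between times, beside 1.81% of all probe sets, and its PB groups, which overlapped, differed by -0.22 ± 0.10. In the PB arm the times did not overlap for 0 of 16 probe sets (0.58% of all), and without the 2 arrays for 2 of 16 (2.66%). These were Cyp1a1, lower at 90 days, and Ahrr, which is below background.

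The remaining machinery of the pathway was read from lists of partners and targets; among all genes 49.6% had a positive difference at 28 days and 56.2% at 90 days, with medians of 0.00 and 0.03. Of 8 chaperones and partners of the receptor 5 were tested and 0 called; 4 of the 5 were negative at each time, with medians of -0.37 and -0.34 (0.17 and -0.28 without the 2 arrays). The oestrogen receptor Esr1, which binds the AhR, gave -0.84 ± 0.33 at 28 days and -0.69 ± 0.33 at 90 days (limma adjusted p = 1.0 and 0.816), and the kinase Src gave 0.29 ± 0.15 and 0.06 ± 0.15. Without the 2 arrays Esr1 gave -0.55 and -0.47, and Src 0.31 and 0.13. All 8 genes of the coactivator list, which holds cofactors of nuclear receptors and the AhR, were negative at both times with 0 called. Their medians of -0.23 and -0.39 became 0.17 and -0.20 without the 2 arrays. Among them Ncoa2 gave -0.37 ± 0.54 and -0.87 ± 0.54, and Crebbp -0.25 ± 0.51 and -0.78 ± 0.51. Without the 2 arrays Ncoa2 gave 0.21 and -0.43, and Crebbp 0.18 and -0.33, so the sign at 28 days turned. Of 8 further proteins that pair with ARNT or resemble it 0 were called, where Arnt2 gave -0.04 ± 0.14 and 0.31 ± 0.14 (adjusted p = 0.816) and the oxygen-regulated Hif3a 0.13 ± 0.15 and 0.25 ± 0.15.

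Targets of the receptor outside the Cyp1 family did not pass the test either. Of 15 genes of the AhR battery and other dioxin-raised genes 9 were tested and 0 called, with 3 positive at 28 days and 6 at 90 days and medians of -0.06 and 0.13. Nqo1, a quinone reductase of the battery, averaged 6.44 ± 0.69 in PB and 6.51 ± 0.52 in CMC livers at 28 days, and 6.71 ± 0.46 in PB and 6.19 ± 0.39 in CMC livers at 90 days (SD, n = 5 each). Its differences were -0.07 ± 0.31 and 0.52 ± 0.31 (limma adjusted p = 1.0 and 0.816), and -0.37 and 0.40 without the 2 arrays. The aldehyde dehydrogenase Aldh3a1, above background on 6 of 20 arrays, gave -0.10 ± 0.11 and 0.23 ± 0.11 (1.0 and 0.816), and the phosphomannomutase Pmm1 gave -0.17 ± 0.15 and -0.30 ± 0.15. Of 5 tryptophan-degrading enzymes that make or clear AhR ligands 0 were called. Tdo2, the main one in hepatocytes, gave -0.06 ± 0.09 and -0.23 ± 0.09 (adjusted p = 0.816), and the formamidase Afmid 0.15 ± 0.29 and 0.45 ± 0.29.

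In the genes that serve or accompany P450 enzymes, 3 of 4 electron donors were tested and 0 called. Cytochrome b5, Cyb5a, gave 0.18 ± 0.07 at 28 days and 0.21 ± 0.07 at 90 days (limma adjusted p = 1.0 and 0.816), and Cyb5b gave -0.44 ± 0.37 and -0.54 ± 0.37. Without the 2 arrays Cyb5a gave 0.16 and 0.19, and Cyb5b 0.03 and -0.33. Cyb5r3, outside the naming rule, gave 0.07 ± 0.37 and 0.23 ± 0.37, and 0.52 and 0.45 without the 2 arrays. With the first component in the model it was called at 90 days (0.206% of genes called) and in the mean of both durations (0.318%). Of the 3 genes of the phenobarbital response Cyp2b10 and Cyp2c55 rose at both times, Cyp2c55 by 5.35 ± 0.30 and 5.18 ± 0.30 (adjusted p = 1.15e-09 and 2.16e-09), beside 0.11 ± 0.06 and 0.16 ± 0.06 for Cyp3a11, which was not called. Cyp3a11 averaged 14.70 to 14.88 in the 4 groups, close to Alb at 15.08 to 15.17. Whether the array can register a rise from so bright a signal was not tested. Set beside the 3 genes, the Cyp1a2 values were 0.72 and 0.30 with all arrays and 1.05 and 0.56 without the 2.

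Several members covaried among livers. Of 21 pairs 7 had a permutation p for r, adjusted over the pairs, under 0.05. Arnt ran with Cyp1a2 (r = 0.695, rho = 0.642, adjusted p = 0.0154 and 0.0184, n = 20) and against Cyp1a1 (r = -0.762, rho = -0.713, 0.00336 and 0.00588). Without the 2 arrays at the low end of the first component these r were 0.464 and -0.588. With the first component removed they were -0.409 and -0.166. Tiparp ran against Cyp1a2 (r = -0.616, rho = -0.75, 0.0309 and 0.00462), at -0.806 without the 2 arrays and -0.24 with the component removed. Ahr ran with Cyp1a2 (r = 0.708, rho = 0.595, 0.0154 and 0.0298), at 0.381 and 0.314 under the same 2 checks. The remaining pairs under 0.05 were Cyp1a1 with Ahr (r = -0.599, and -0.0865 with the component removed) and Cyp1b1 with Arnt (r = 0.598, and 0.477 with it removed), for which rho did not pass the adjustment (0.0727 each).

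The 3 genes most like each member were taken by Pearson's r over the 20 group-centred livers, as a description. Cyp1a2 was closest to Chdh, choline dehydrogenase (0.959), the transcription factor Nfix (0.958) and the transporter Slc6a13 (0.956), whose own r with the component lay between 0.963 and 0.978. Cyp1a1 was closest to the nucleotidase Nt5c3b (0.901), the leukocyte surface protein Cd48 (0.897) and the myeloid Fc receptor Fcgr4 (0.894). Their own r with the component was -0.953, -0.84 and -0.907, and that of Cyp1a1 was -0.84. Of 6 Kupffer and macrophage markers 5 were positive at 28 days and 1 at 90 days in PB against CMC livers, with medians of 0.19 and -0.34 and 0 called (0.04 and -0.50 without the 2 arrays), and their summed signal ranged from 2228 to 4282 in PB and 1538 to 3911 in CMC livers at 28 days, and from 986 to 2721 in PB and 1173 to 2783 in CMC livers at 90 days. Their part in the Cyp1a1 signal was not tested. Cyp1b1 lay closest to Abca5 (0.806), Ei24 (0.803) and Pomk (0.801), Ahr to Amotl2 (0.917), Fnip2 (0.916) and Plagl1 (0.895), Arnt to Sde2 (0.922), Esf1 (0.918) and Arf6 (0.915), and Tiparp to Tmed5 (0.846), Dennd2c (0.84) and Dnph1 (0.839). These genes also followed the component, with an own r between 0.683 and 0.915 for those near Cyp1b1, Ahr and Arnt. For those near Tiparp it lay between -0.737 and -0.614.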

How the data were processed

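Liver RNA of 20 CD-1 mice was measured on Affymetrix 3′ arrays, 1 per mouse, and groups and replicate numbers were read from the sample titles. The authors deposited log2 signal intensities made with RMA, per the submitters' processing notes, and the version of RMA is not given in the sources used here. No further normalization was applied, and 0 columns of per-sample values were left out. Of the probe sets, 34945 had 1 gene symbol in the platform annotation, and the brightest stood for its gene. Genes were kept if above the 25th percentile of the array on 5 arrays or more, which left 16054.

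A mean per group was fitted to all arrays with limma 3.58.1 (R 4.3.3, intensity trend, 16 residual degrees of freedom), and 6 contrasts were tested two-sided with Benjamini-Hochberg adjustment over all genes. The same model, without the filter, was fitted to all 45037 probe sets. The fit was tested on simulated data. The p-values of limma set each difference of group means against the spread between these mice within groups. Correlations used group-centred values and 100000 permutations.

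The members, the 7 pathway lists and the 10 marker lists were chosen with earlier results of these data known. Named are all members, the called genes of each pathway list or else its 2 with the smallest unadjusted p, always Nqo1, Aldh3a1, Cyp2b10 and Cyp2c55, and the 3 genes most like each member. One gene of the rule is not reported here. Alternatives were other filters, probe-set rules, centring, cyclic loess, no trend, array weights, fewer groups, a replicate block, the first component as a covariate and the removal of arrays. Promoter windows came from RefSeq on GRCm38.p6. Other tools were Python 3.11.15, SciPy 1.17.1 and matplotlib 3.10.9.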

Additional observations from a re-analysis of the deposited data

Results flagged for a closer look

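Of 68 groups of 5 livers that were checked for a value far from the rest, 6 were flagged, and chance flags about 1 in 20 groups. PB replicate 5 at 28 days was flagged in 4 of them: Cyp1a2 at 11.52 where the other PB livers lay between 13.08 and 13.28, Cyp1a1 at 5.681 where they lay between 4.735 and 4.99, Ahrr at 3.746 where they lay between 3.459 and 3.472, and the first-component score at -107.9 where they lay between -17.34 and 17.38. In the CMC livers, replicate 4 at 28 days had Ahrr at 3.337 where the others lay between 3.586 and 3.618. Replicate 4 of the 90-day CMC livers had Tiparp (1426721_s_at) at 7.761 where the others lay between 7.035 and 7.138. The dim Arnt probe set 1421721_a_at gave differences of opposite sign, 0.15 ± 0.09 at 28 days and -0.11 ± 0.09 at 90 days. The effect at 90 days minus that at 28 days was -0.259 (limma adjusted p = 1.0).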

How the results depend on the processing

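In all 41 results were recomputed under 14 other settings and 20 removals of single arrays, and the Cyp1a2 calls depended on the treatment of the arrays. Its 28-day difference of 0.72 was not called with all arrays and was called at 0.97 with array weights, 0.86 with the first component as a covariate, 1.05 without the 2 arrays at its low end and 0.92 without the 4 arrays below -30. The mean over durations was likewise called at 0.71, 0.75, 0.81 and 0.74. At 90 days it was called only with the component as a covariate, at 0.64. The number of members called was 1, in place of 0, in each of these settings. At 28 days 4 genes in all were called with only the groups compared, 17 with array weights and 17 with the covariate, against 8. Between PB at 90 and 28 days 0 genes were called with only the groups compared and 2 with array weights, with cyclic loess and without the 2 arrays, against 1. Leaving out single arrays gave 0.61 to 1.05 for Cyp1a2 at 28 days, 0.13 to 0.56 at 90 days and 1 to 2 calls between the PB times, with 0 members called throughout.

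Values near 0 changed sign. Cyp1a1 at 28 days was -0.13 with array weights, -0.053 with cyclic loess, -0.063 with the covariate, -0.15 without the 2 arrays and -0.023 without the 4, and -0.15 to 0.085 without single arrays. At 90 days it was 0.043 after centring on the 75th percentile, and -0.14 to 0.035 without single arrays. Ahr at 28 days was 0.0024 as the mean of its probe sets. At 90 days Ahr was 0.13 as that mean, 0.19 with weights, 0.054 after centring, 0.16 with the covariate and 0.22 without the 2 or the 4 arrays, and -0.15 to 0.22 without single arrays. Arnt was -0.045 at 28 days without the 4 arrays, -0.090 to 0.13 without single arrays, and 0.021 at 90 days with the covariate. Tiparp at 90 days was -0.043 on probe sets of the plain kind. Cyp1a2 between PB times was -0.020 with the covariate and -0.14 to 0.45 without single arrays. The correlation of Cyp1a2 with Arnt was -0.409 with the component removed. The cause of these shifts was not tested.

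With the replicate number as a block, Cyp1a2 was 0.72 at 28 days and 0.30 at 90 days (limma adjusted p = 1.0 and 0.844), and 8 and 22 genes were called. The deviations of same-numbered PB and CMC livers correlated between -0.599 and 0.36, with no common sign. With 5 pairs at each duration these values cannot decide whether the numbers pair mice. The number of arrays limits the precision, and signals near background limit Cyp1a1, Cyp1b1 and Ahrr most.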

Other observations

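Markers of other cell types that liver tissue holds were read in the same fit. Of 6 neutrophil markers 1 was called, S100a8, which rose by 6.28 ± 1.13 in PB against CMC livers at 90 days (limma adjusted p = 0.0163), where 0.143% of all genes were called. At 28 days it differed by 5.06 ± 1.13 and was not called with all arrays (adjusted p = 0.248), and rose by 5.95 without the 2 arrays (0.0261). In the mean of both durations it rose by 5.67 ± 0.80 (0.00067). At 90 days S100a8 averaged 11.48 ± 3.39 in PB and 5.19 ± 0.27 in CMC livers (SD, n = 5 each). The lowest summed signal of the 6 markers in a PB liver at 90 days, 216, lay within the CMC range of 170 to 237. Not every PB liver therefore showed the rise. The other 5, S100a9 and the granule genes Ngp, Camp, Ltf and Elane, lay between -0.15 and 0.20 at 28 days and between -0.01 and 0.22 at 90 days, with 0 called. The 6 endothelial markers had medians of 0.05 at 28 days and 0.15 at 90 days, the 4 cholangiocyte markers tested 0.09 and 0.03, the 4 lymphocyte markers tested 0.14 and 0.16, and the 2 red cell markers tested -0.07 and 0.05, with 0 called. Without the 2 arrays the 28-day medians of the lymphocyte and red cell markers were -0.02 and 0.01. Of 3 adipocyte markers 0 were tested.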
